A study of Glycine max with 12 samples.

Results

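Long non-coding RNAs (lncRNAs) assembled inside 4 host genes of seed oil metabolism, DGAT, FATB1B, PLDZ and WRI1, were described in young soybean pods. They were taken as every transcript of the lncRNA table whose host gene name was exactly one of these 4 names, whatever its expression. This gave 6 of 11072 lncRNA transcripts, with 1 in DGAT, 1 in FATB1B, 2 in PLDZ and 2 in WRI1.

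The pods came from MT72, a low-linolenic acid soybean line from mutagenesis with ethyl methanesulfonate, used here in the fourth generation, and from the high-oil variety JN18, its wild-type control. Both were sampled at 40 and 30 d after flowering, with 3 biological replicates in each of 4 groups: MT_40 (libraries MT_4, MT_5 and MT_6), MT_30 (MT_7, MT_8 and MT_9), JN_40 (JN_4, JN_5 and JN_6) and JN_30 (JN_7, JN_8 and JN_9). Total RNA was depleted of ribosomal RNA and sequenced as paired reads of 150 bases with a stranded kit. MT72 is a single mutant line, so that any other mutation it carries cannot be told apart from the one behind its fatty acid profile.

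Seed oil is triacylglycerol, made from fatty acids that are built in the plastid and joined to glycerol in the endoplasmic reticulum. WRI1 is a transcription factor that switches on the genes of glycolysis and fatty acid synthesis, FATB thioesterases release mainly saturated fatty acids from acyl carrier protein, and DGAT adds the last acyl chain to diacylglycerol. Phospholipase D cuts the head group from membrane phospholipids and leaves phosphatidic acid, and its zeta forms are known in Arabidopsis from the recycling of membrane lipids when phosphate is short. The desaturases that make linolenic acid are not among these hosts.

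All 4 host names were found in the RefSeq gene table of Glycine_max_v4.0 as protein-coding genes on the chromosome of their lncRNAs. The DGAT host is the gene also called DGAT1C, on chromosome 9, and the WRI1 host is now named WRI1B, on chromosome 15. The positions below are those of the deposited table, whose genome build the sources used here do not give. No sequences were analysed here.

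Of the 6 transcripts, 5 were intronic, that is, they lay within an intron of the host, and had a single exon. MSTRG.51202.1 lay in an intron of DGAT (chromosome 9, 6385947 to 6386469) and was 523 bases long, longer than 76.8% of the 5154 intronic lncRNAs. MSTRG.21677.1 lay in an intron of FATB1B (chromosome 17, 9573845 to 9574217) with 373 bases. MSTRG.33761.1 lay in an intron of PLDZ (chromosome 20, 46974273 to 46974934) with 662 bases on the plus strand, and 84.5% of the intronic lncRNAs were shorter. The WRI1 transcripts MSTRG.17772.1 (chromosome 15, 40070753 to 40071058) and MSTRG.17773.1 (40071646 to 40071864) were 306 and 219 bases long and 587 bases apart. The intronic median was 317.5 bases.

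The other PLDZ transcript, MSTRG.33760.2, was the only member built from several exons. It shared a splice junction with PLDZ on the plus strand (chromosome 20, 46980389 to 46981714), and its 3 exons summed to 272 bases over a span of 1326 bases. Only 7.36% of the 1074 lncRNAs of this class were shorter, and their median was 665.5 bases. Both PLDZ transcripts lay on the same strand, 5454 bases apart. The 4 transcripts in DGAT, FATB1B and WRI1 were listed without a strand.

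The table keeps transcripts that were judged to lack coding potential, and the scores of the members differed within that limit. The CPC score, which is higher for RNA that looks more like coding sequence, lay between 0.00363 for the DGAT transcript and 0.0313 for MSTRG.17772.1 in WRI1. The DGAT score was above that of 6.38% of the table and the WRI1 score above 66.5%. The CNCI score, a second measure of the same kind, lay between -0.0983 in DGAT and -0.00041, the value shared by the FATB1B transcript, the intronic PLDZ transcript and MSTRG.17773.1.

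Expression was given as FPKM, which scales the reads of a transcript by its length and by the depth of its library, so that levels of different transcripts can be set side by side. Coverage divided by FPKM put the 12 libraries at 10.0 to 12.3 Gb of aligned bases. The reads behind a value were estimated from the coverage. JN_9 listed 2847 lncRNAs at 0, against 2074 to 2360 in the other 11 libraries, and was the highest library for 17.7% of the tested lncRNAs. JN_7 was the highest for 14.1%, against 4.38% to 9.04% in the other 10 libraries. The table holds lncRNAs only, so that the tissue label was not checked against marker genes and the mRNA levels of the 4 hosts were not analysed here. In whole pods, fewer cells of a type and less RNA per cell cannot be told apart. Reads from an unspliced host transcript and from an intronic lncRNA inside it cannot be told apart either. The same holds for reads over a splice junction that a lncRNA shares with its host mRNA.

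**Figure D1:**
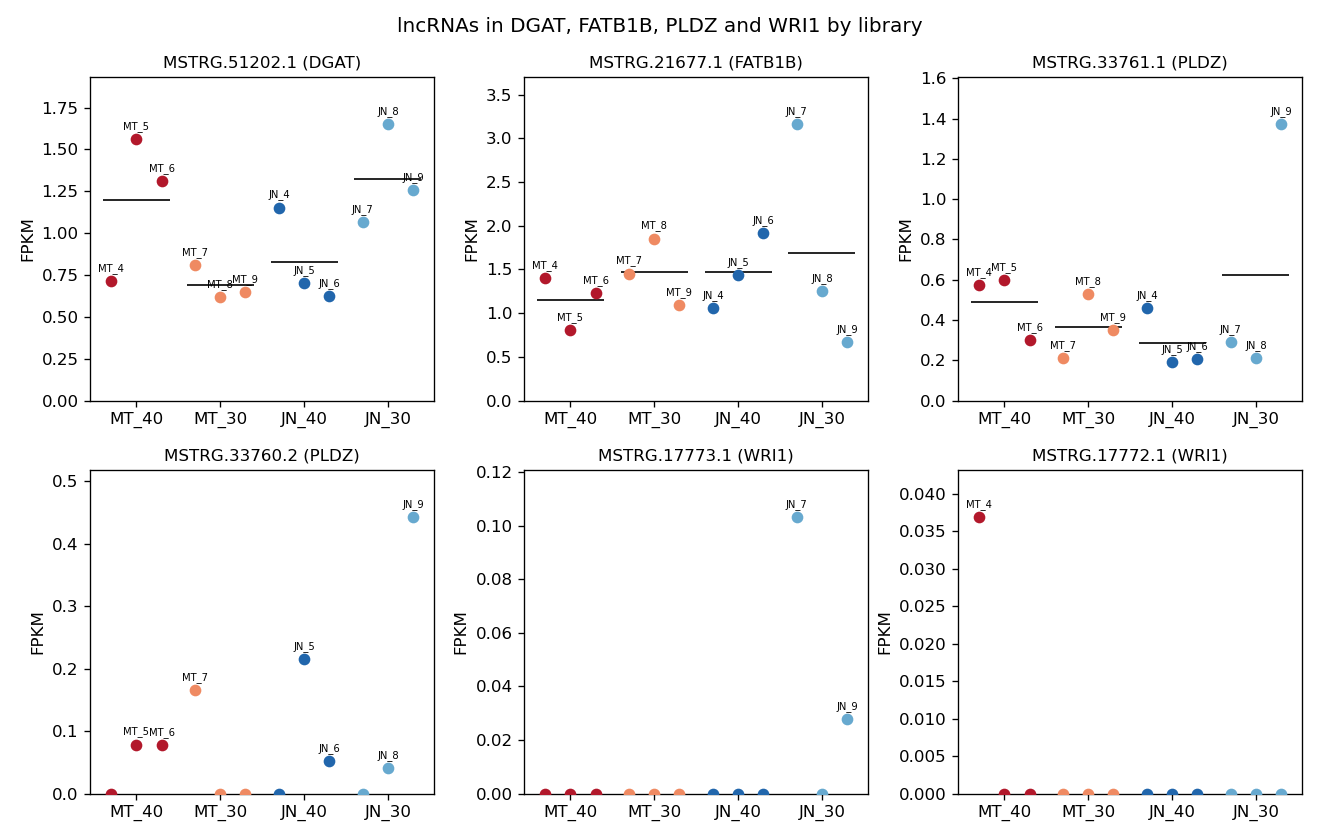
Expression (FPKM, linear axes from 0, different scales) of the 6 lncRNAs in the 12 libraries of the 4 groups, 1 point per library with its name where the value is above 0. Horizontal lines are group means, drawn where all 12 libraries are above 0. The intronic lncRNAs of DGAT, FATB1B and PLDZ were above 0 in all 12 libraries, and those of WRI1 in 1 and 2 libraries.

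The order of the members by mean FPKM over the 12 libraries was FATB1B (1.44), DGAT (1.01), intronic PLDZ (0.441), junction-sharing PLDZ (0.0895), then MSTRG.17773.1 (0.0109) and MSTRG.17772.1 (0.00307) in WRI1. The FATB1B transcript ranked 1066 and the DGAT transcript 1914 of 11072, above 91.7% and 82.1% of the intronic lncRNAs, whose median was 0.463 FPKM. The intronic PLDZ transcript ranked 5018, near the middle of the table. FATB1B and DGAT, neighbours in this order, were not separated by library: the FATB1B transcript was the higher in 7 of 12 libraries.

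WRI1, the transcription factor among the hosts, carried the members with the lowest values. MSTRG.17772.1 had 0.0369 FPKM in MT_4, an estimated 0.873 reads, and was listed at 0 in the other 11 libraries. MSTRG.17773.1 had 0.103 FPKM in JN_7 and 0.0277 in JN_9, an estimated 1.63 and 0.493 reads, and was listed at 0 in the other 10. These values show no pattern by stage or material that the depth could resolve. Such sparse transcripts were not rare in the table, where 854 lncRNAs (7.71%) were above 0 in at most 1 library and 1146 (10.4%) in at most 2. Among the intronic lncRNAs these shares were 2.48% and 3.78%. Both WRI1 transcripts fell short of the filter for testing, which asked for more than 0.1 FPKM in at least 3 libraries and which 9142 lncRNAs and 4 of the 6 members passed.

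In FATB1B, the thioesterase gene, the lncRNA had 1.40, 0.803 and 1.23 FPKM in MT_40, and 1.45, 1.85 and 1.09 in MT_30. It had 1.05, 1.44 and 1.91 FPKM in JN_40, and 3.16, 1.25 and 0.664 in JN_30. The groups overlapped throughout, and JN_30 held both the highest library, JN_7, and the lowest, JN_9. MT_40 averaged 1.15 ± 0.310 and MT_30 1.47 ± 0.381 FPKM, beside 1.47 ± 0.431 for JN_40 and 1.69 ± 1.31 for JN_30 (SD, n = 3 each). Without JN_7 the JN_30 mean was 0.957 ± 0.414. The values rested on 20.2 to 85.3 estimated reads.

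In DGAT, the gene of the last step, the lncRNA had 0.715, 1.56 and 1.31 FPKM in MT_40, and 0.812, 0.616 and 0.647 in MT_30. It had 1.15, 0.701 and 0.627 FPKM in JN_40, and 1.06, 1.65 and 1.26 in JN_30. The 3 MT_30 libraries lay close together at the low end, and all 3 JN_30 libraries lay above them. In MT_40 and in JN_40 the libraries were split, with MT_4 low beside MT_5 and MT_6, and JN_4 high beside JN_5 and JN_6. MT_40 averaged 1.20 ± 0.435 and MT_30 0.692 ± 0.105 FPKM, beside 0.827 ± 0.285 for JN_40 and 1.32 ± 0.299 for JN_30. The values rested on 23.0 to 58.8 estimated reads.

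In PLDZ, the intronic lncRNA had 0.574, 0.597 and 0.301 FPKM in MT_40, and 0.210, 0.530 and 0.348 in MT_30. It had 0.461, 0.192 and 0.206 FPKM in JN_40, and 0.292, 0.211 and 1.37 in JN_30. The JN_9 value was more than any other library held, and the remaining 11 libraries lay between 0.192 and 0.597. MT_40 averaged 0.491 ± 0.165 and MT_30 0.363 ± 0.160 FPKM, beside 0.286 ± 0.151 for JN_40 and 0.625 ± 0.648 for JN_30. Without JN_9 the JN_30 mean was 0.251 ± 0.0573. The estimated reads were 73.9 in JN_9 and 9.35 to 29.4 in the others.

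The junction-sharing PLDZ lncRNA had 0, 0.0785 and 0.0775 FPKM in MT_40, and 0.166, 0 and 0 in MT_30. It had 0, 0.215 and 0.0523 FPKM in JN_40, and 0, 0.0409 and 0.443 in JN_30. It was above 0 in 7 of 12 libraries and above 0.1 FPKM in 3 (MT_7, JN_5 and JN_9), the least the filter allows. JN_9 was again the highest library, with 9.80 estimated reads. Of the summed FPKM of both PLDZ lncRNAs, this transcript made up 24.4% in JN_9. The share was highest in JN_5 at 52.8%, from 4.59 estimated reads, then 44.2% in MT_7, and 0% where the transcript was listed at 0. The part of the JN_9 library in the high PLDZ values was not tested.

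Comparisons were run with limma on log2(FPKM + 0.1) over all 9142 lncRNAs that passed the filter, which understates the change of a transcript near 0.1 FPKM. A call needed a Benjamini-Hochberg adjusted p of at most 0.05 over all of them. The thresholds the study states, an absolute log2 fold change above 1 with an unadjusted p of at most 0.05, were counted as well in the 4 comparisons of 2 groups. They were applied here to limma, whereas the study named edgeR and reported fewer lncRNAs in each of these comparisons. None of the 4 tested members was called at the adjusted p in any of 7 comparisons, nor at the study's thresholds in those 4, and their smallest adjusted p was 0.350. At an unadjusted p of at most 0.05 alone, the DGAT lncRNA passed in 2 comparisons and no other member in any. These 2, MT_30 versus JN_30 and the difference between the stage effects, share the MT_30 and JN_30 libraries and are not separate results.

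At 40 d versus 30 d in MT72, the DGAT lncRNA averaged 1.20 FPKM in MT_40 and 0.692 FPKM in MT_30, a log2 fold change of 0.66 (SE 0.37, adjusted p = 0.441). MT_4, at 0.715 FPKM, lay inside the range of MT_30. The intronic PLDZ lncRNA had a log2 fold change of 0.37 (SE 0.59) and the FATB1B lncRNA one of -0.33 (SE 0.47), neither larger than the spread between replicates. Of all tested lncRNAs 2.5% were called here at the adjusted p and 14.2% at the study's thresholds, against 0 of the 4 members. Libraries of the groups did not overlap for 28.6% of them, and 15.4% had an unadjusted p of at most 0.05, both again against 0 members. With only 4 members tested, a count of 0 does not set them apart from any of these shares, here or in the comparisons below.

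At 40 d versus 30 d in JN18, the DGAT lncRNA averaged 0.827 FPKM in JN_40 and 1.32 FPKM in JN_30, a log2 fold change of -0.64 (SE 0.37, adjusted p = 0.524). JN_4, at 1.15 FPKM, lay above JN_7, so that the groups overlapped. The FATB1B lncRNA had a log2 fold change of 0.03 with a 95% interval of -0.99 to 1.05, which leaves room for a change of up to about the size of the study's threshold in either direction. The intronic PLDZ lncRNA had -0.61 (SE 0.59), and 0.08 without JN_9. The background of calls was 0.197% at the adjusted p and 10.6% at the study's thresholds, with 11.9% at an unadjusted p of at most 0.05 and 13.1% with groups that did not overlap.

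Between the materials at 30 d, all 3 MT_30 libraries of the DGAT lncRNA (0.616 to 0.812 FPKM) were below all 3 JN_30 libraries (1.06 to 1.65 FPKM). The log2 fold change was -0.84 (SE 0.37, 95% interval -1.64 to -0.03) with an unadjusted p of 0.0424 and an adjusted p of 0.350. It was -0.45 with a pseudocount of 1. The DGAT lncRNA was the only member whose groups did not overlap in this or any other comparison of 2 groups, and 17.7% of all tested lncRNAs had groups that did not overlap here. An unadjusted p of at most 0.05 was reached by 13.4% of the tested lncRNAs, an adjusted one by 0.886%, and the study's thresholds by 12%. The log2 fold changes of the FATB1B lncRNA (0.03, SE 0.47) and the intronic PLDZ lncRNA (-0.34, SE 0.59) were within the spread between replicates, and the PLDZ value was 0.35 without JN_9. This comparison and the stage comparison in JN18 share the JN_30 libraries.

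Between the materials at 40 d, no member stood out. The DGAT lncRNA averaged 1.20 FPKM in MT_40 and 0.827 FPKM in JN_40 (log2 fold change 0.46, SE 0.37, adjusted p = 0.890). The intronic PLDZ lncRNA averaged 0.491 FPKM in MT_40 and 0.286 FPKM in JN_40 (0.64, SE 0.59, adjusted p = 0.914), and the FATB1B lncRNA had -0.33 (SE 0.47). Groups of all 4 members overlapped, as they did for all but 14% of the tested lncRNAs, and the background of calls was 0.153% at the adjusted p, 5.85% at the study's thresholds and 6.76% at an unadjusted p of at most 0.05.

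Over both materials together, the 6 libraries at 40 d and the 6 at 30 d gave a log2 fold change of 0.01 for the DGAT lncRNA, with a 95% interval of -0.56 to 0.57. Its stage differences in MT72 and JN18 had opposite signs. The interval of the FATB1B lncRNA was -0.87 to 0.57 around -0.15, and that of the intronic PLDZ lncRNA was -1.03 to 0.79 around -0.12, which became 0.22 without JN_9. Stage changes as large as 1 on the log2 scale and common to both materials therefore lay outside the intervals for DGAT and FATB1B. In this comparison 4.05% of the tested lncRNAs were called at the adjusted p and 19.9% had an unadjusted p of at most 0.05.

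Over both stages together, MT72 versus JN18 gave -0.19 for the DGAT lncRNA (95% interval -0.75 to 0.38), -0.15 for the FATB1B lncRNA (-0.87 to 0.58) and 0.15 for the intronic PLDZ lncRNA (-0.76 to 1.05), which became 0.49 without JN_9. No member was called, where the background was 1.01% at the adjusted p and 13.2% at an unadjusted p of at most 0.05.

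The stage difference of the DGAT lncRNA in MT72 minus that in JN18 was 1.30 on the log2 scale (SE 0.53, 95% interval 0.16 to 2.43). Its unadjusted p was 0.0280, and 6.73% of the tested lncRNAs had one of at most 0.05. Its adjusted p was 0.698, and 0.0766% of the tested lncRNAs passed at the adjusted level. The intronic PLDZ lncRNA had 0.98 (SE 0.84), and 0.29 without JN_9. The FATB1B lncRNA had -0.36 (SE 0.67).

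The junction-sharing PLDZ lncRNA, with values at 0 in 5 libraries, had log2 fold changes between -0.51 and 0.08 in the 4 comparisons of 2 groups. Each had an SE of 0.67, and its adjusted p was 0.779 or more. With a pseudocount of 0.01 in place of 0.1 the value for MT_30 versus JN_30 was -1.24 in place of -0.51 and that for MT_40 versus MT_30 was 0.71 in place of 0.08, so that its fold changes depend on the pseudocount.

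**Figure D2:**
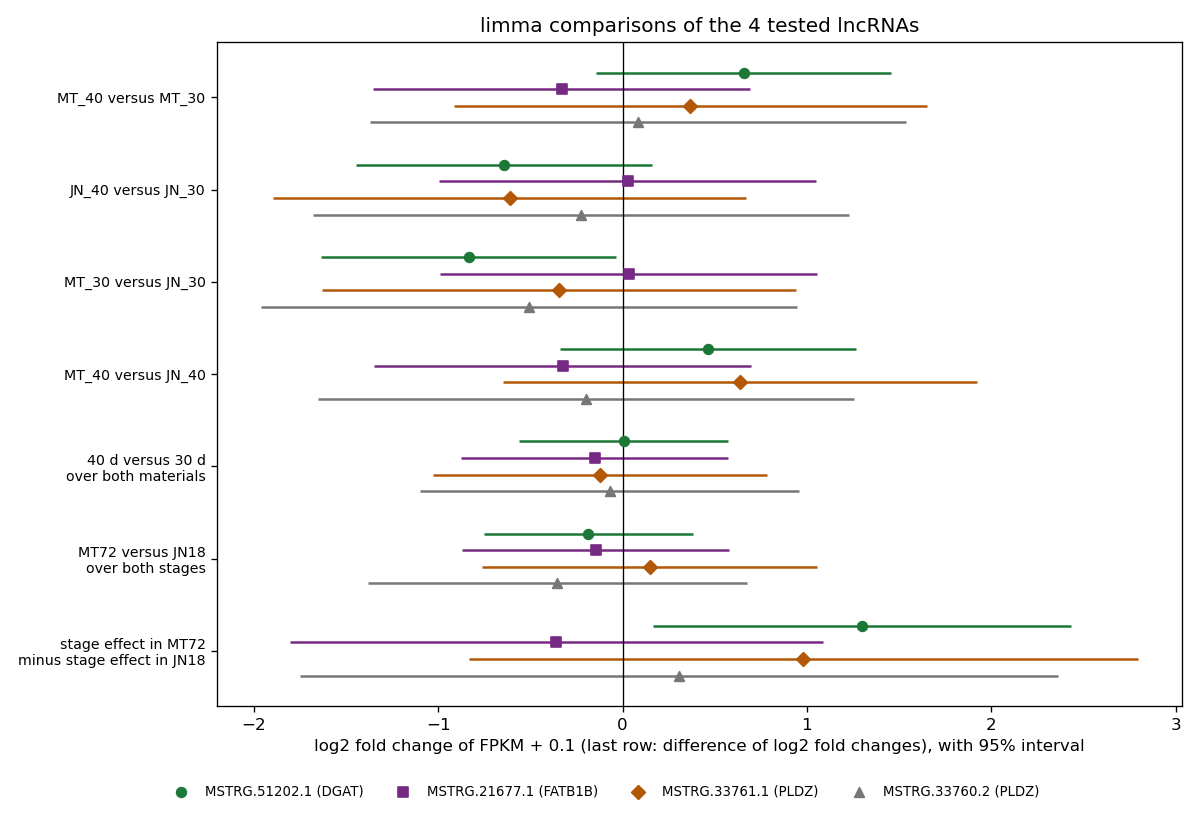
Log2 fold changes of FPKM + 0.1 (last row: difference between 2 log2 fold changes) with 95% intervals for the 4 tested lncRNAs in the 7 comparisons, from limma over 9142 lncRNAs. The intervals of the DGAT lncRNA exclude 0 for MT_30 versus JN_30 (-0.84) and for the difference between the stage effects (1.30), neither of which passed adjustment over all tested lncRNAs, and every other interval includes 0.

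The members differed in how closely their replicates agreed. The SD within groups of log2(FPKM + 0.1) was 0.383 for the DGAT lncRNA, and 18.6% of the 3848 tested lncRNAs within a factor of 2 of its level had a lower one, beside a median of 0.601. It was 0.622 for FATB1B (59.0% of 2624 were lower), 0.742 for the intronic PLDZ lncRNA (49.9% of 4855 were lower) and 0.903 for the junction-sharing PLDZ lncRNA (84.4% of 1466 were lower). The median estimated reads a library were 35.9 for DGAT, 38.0 for FATB1B, 16.3 for the intronic and 0.872 for the junction-sharing PLDZ lncRNA. Peers were matched by FPKM and not by length or reads, and the part of read counting in these SDs was not tested.

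The range of the group means of the FATB1B lncRNA on the log2 scale was 0.33, and 6.82% of its peers had a smaller one, beside a peer median of 0.91. This low rank depends on single libraries: leaving out 1 library at a time, a step added after the range was seen, the range was 0.78 without JN_9 (43.3% of the peers lower), 0.60 without JN_7 (22.1% lower), 0.53 without JN_4, 0.51 without MT_9 and 0.12 without MT_5 (0.229% lower). The range was 0.84 for the DGAT lncRNA, with 40.8% of its peers lower, and 0.64 for the intronic PLDZ lncRNA, with 17.98% lower. Leaving out 1 library at a time these ranges lay between 0.68 and 0.97 for DGAT and between 0.47 (without JN_5) and 1.04 (without JN_8) for the intronic PLDZ lncRNA.

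**Figure D3:**
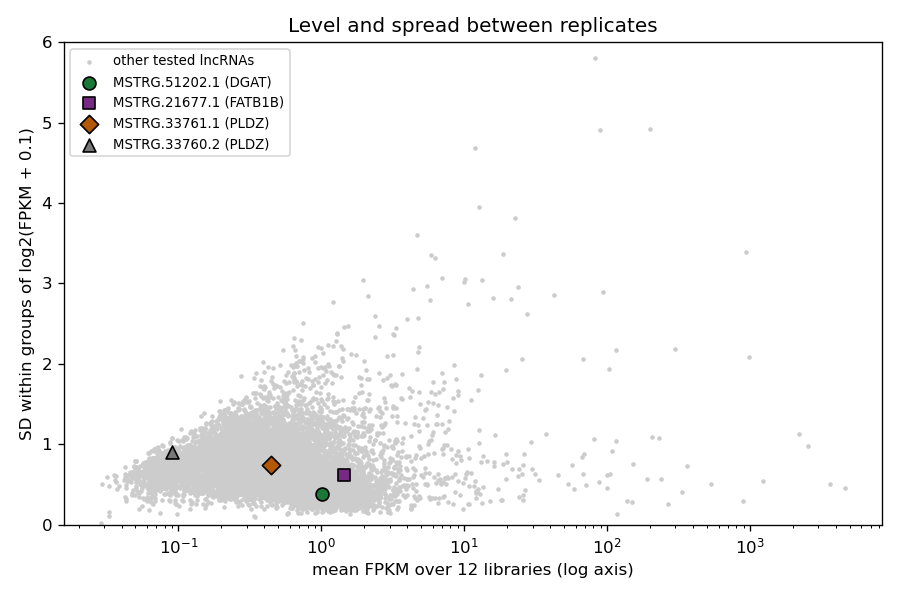
SD within groups of log2(FPKM + 0.1) against mean FPKM over the 12 libraries (log axis) for the tested lncRNAs, 1 grey point each, with the 4 tested members marked. The DGAT lncRNA (SD 0.383) lies low among lncRNAs of its level and the junction-sharing PLDZ lncRNA (SD 0.903) lies high among those of its own.

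PLDZ stood in a stretch of chromosome 20 with several lncRNAs. Around each of its lncRNAs 6 others lay within 50 kb, where the median over the table was 2 (quartiles 1 and 4), whereas the DGAT and FATB1B lncRNAs had 0 and each WRI1 lncRNA had 1, namely the other one. Beside the other PLDZ transcript these were the intergenic MSTRG.33757.1, MSTRG.33758.1, MSTRG.33758.2 and MSTRG.33759.1, the last 1741 bases from the intronic PLDZ lncRNA, and MSTRG.33763.1, antisense to LOC102661919. MSTRG.33758.2 had 2.02 FPKM in JN_9 against 0.0690 in JN_7 and 0.0699 in JN_8. Its other values were 0.518, 0.438 and 0.390 FPKM in MT_40, 0.304, 0.281 and 0.446 in MT_30, and 0.786, 0.786 and 0.531 in JN_40. As with both PLDZ lncRNAs, the JN_9 value was the highest of the 12.

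JN_9 was also the highest library of MSTRG.33757.1, at 1.14 FPKM against 0.156 in JN_7 and 0.408 in JN_8. In MSTRG.33763.1 it was the lowest, at 0.109 FPKM against 0.406 in JN_7 and 0.763 in JN_8. The antisense transcript averaged 1.15 ± 0.359 FPKM in JN_40 and 0.426 ± 0.327 FPKM in JN_30, a log2 fold change of 1.42 with an adjusted p of 0.280. Its unadjusted limma p was 0.0122, so that it passed the study's thresholds, as 10.6% of the tested lncRNAs did. In MSTRG.33758.1 JN_9 had 0.273 FPKM, below JN_7 (0.504) and JN_8 (0.478). In MSTRG.33759.1 it had 0.309 FPKM, between JN_7 (0.192) and JN_8 (0.340). The neighbouring values of JN_9 therefore did not all go the same way.

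**Figure D4:**
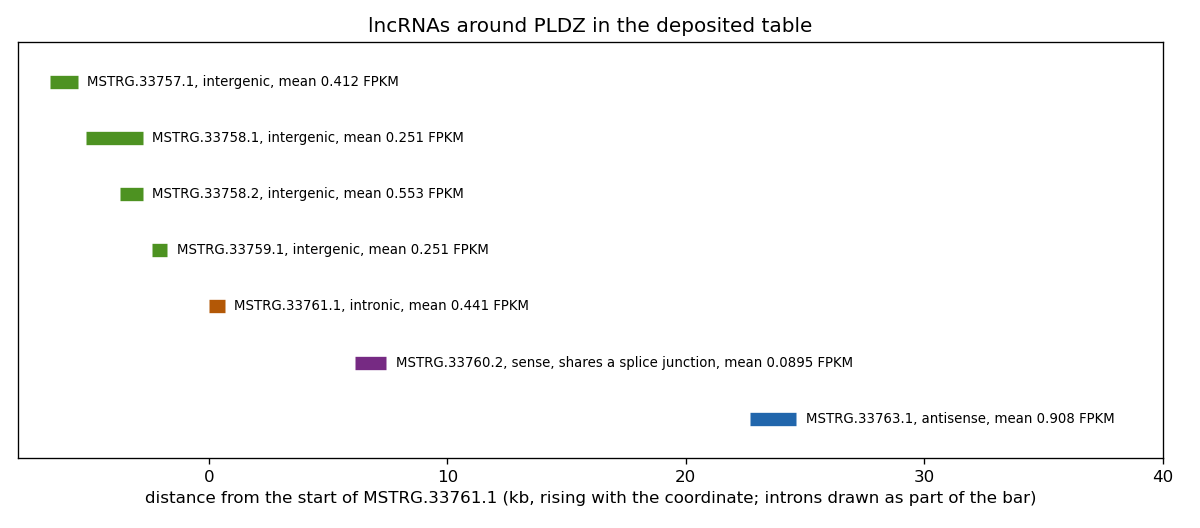
The 7 lncRNAs of the PLDZ region by distance in kb from the start of the intronic PLDZ lncRNA (x axis, to scale), 1 bar per transcript from its first to its last base, coloured by class and labelled with its mean FPKM. The 2 PLDZ lncRNAs are 5.45 kb apart, with 4 intergenic lncRNAs on one side and the antisense lncRNA on the other.

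Nearest to the DGAT lncRNA was MSTRG.51208.1 in LOC100790162 at 51.0 kb, and on the other side the intergenic MSTRG.51197.1 at 54.1 kb. MSTRG.51197.1 had a log2 fold change of 1.41 for 40 d versus 30 d over both materials (adjusted p = 0.113), where the DGAT lncRNA had 0.01. The nearest lncRNAs to that of FATB1B were MSTRG.21671.1 in LOC100800727 at 74.3 kb and the intergenic MSTRG.21692.1 at 129 kb. MSTRG.51208.1 and MSTRG.21671.1 did not pass the filter, and MSTRG.51197.1 and MSTRG.21692.1 were called in no comparison.

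The lncRNAs whose pattern over the 12 libraries was most like that of a member were found by the root mean square difference of centred log2(FPKM + 0.1), among tested lncRNAs of other hosts with a mean of at least 0.5 FPKM. For DGAT they were the intergenic MSTRG.50013.1 (0.261) and MSTRG.27903.2 (0.279), which shares a splice junction with LOC100526940, against a median of 0.804 over 4486 lncRNAs. MSTRG.50013.1 averaged 1.39 ± 0.278 FPKM in MT_40 and 1.14 ± 0.142 in MT_30, beside 1.11 ± 0.334 for JN_40 and 1.90 ± 0.712 for JN_30. Its highest mean was in JN_30, as in DGAT, but its lowest was in JN_40. MSTRG.27903.2 averaged 1.38 ± 0.139 FPKM in MT_40 and 0.776 ± 0.0027 in MT_30, beside 1.14 ± 0.202 for JN_40 and 1.49 ± 0.223 for JN_30. Its lowest mean was in MT_30 and its highest in JN_30, as in DGAT.

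For FATB1B the most similar were the intergenic MSTRG.17872.1 (0.270) and MSTRG.33253.1 (0.277). For the intronic PLDZ lncRNA they were MSTRG.48672.2 of LOC100806910 (0.399) and MSTRG.912.1 of LOC100790154 (0.411), and for the junction-sharing one MSTRG.23831.1 of LOC100818000 (0.387) and MSTRG.18554.1 of LOC100794697 (0.400). None lay on the chromosome of its member. These lncRNAs were picked by likeness, so that their values add no test.

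Other genes of fatty acid, triacylglycerol and membrane lipid metabolism were searched among the 4607 host names with 60 name stems. Only 48 hosts carried a name other than a LOC number, and none of them was another lipid gene of the list. Host names were then matched to RefSeq, a step added after they were seen, and 4418 hosts matched an entry. Only the symbol and synonyms of an entry were searched, so that a lipid gene listed under its LOC number alone would be missed. In this way 3 further lncRNAs were found, of which 2 passed the filter and 0 were called. MSTRG.49208.2 and MSTRG.49209.1 belonged to LOC100789774, named WRI1A. Their means were 0.0097 and 0.0939 FPKM, and they were above 0 in 7 and 6 libraries. MSTRG.30061.1 lay in an intron of LOC100808564, named SDP6, with a mean of 0.743 FPKM and values above 0 in all 12 libraries.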

How the data were processed

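RNA of young pods from 12 libraries in 4 groups of 3 was used as deposited. The authors trimmed reads with Cutadapt and assembled transcripts and estimated FPKM with StringTie. For mapping, HISAT2 stands in the study's methods and TopHat2 in the submitters' processing notes. The sources used here give neither their versions nor the genome build. The deposited coverage, the average depth of reads along a transcript, was not normalized. The CPC score and CNCI score were computed by the authors, who kept transcripts longer than 200 bases without coding potential.

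Dividing coverage by FPKM gave the same value for every lncRNA of a library, equal to its aligned bases in Gb. Estimated reads were coverage times length divided by 150. Both mates of a pair are counted, so that independent fragments are fewer.

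Groups were taken from the sample labels. The authors named edgeR for their test, which needs counts, so limma 3.58.1 (R 4.3.3) was run on log2(FPKM + 0.1) of the lncRNAs with more than 0.1 FPKM in 3 or more libraries. All 4 groups stood in 1 fit with 8 residual degrees of freedom and a trend in the prior variance. The p-values set a difference against the spread between these biological replicates, pooled over the 4 groups and moderated by that of the other tested lncRNAs. Python 3.11.15 with pandas 2.3.3, numpy 2.4.6 and matplotlib 3.10.9 gave descriptions and figures. Peers of a member in the spread comparison are the tested lncRNAs with a mean FPKM within a factor of 2 of its own. The fit was tested on simulated data.

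The members, comparisons and gene lists were chosen with earlier results of these data known. Every lncRNA of the 4 hosts was named, with the nearest lncRNA on each side and the 2 of most similar pattern for each tested member. The lncRNAs of the PLDZ region and of the hosts matched through RefSeq were named after their values were seen. RefSeq served only for names, and 4418 of 4607 host names matched an entry, which need not hold a name beyond the LOC number. Alternatives covered pseudocounts of 0.01 and 1, other filters, a fit of only the compared groups, rescaling, array weights, voom on estimated reads, no variance trend, leaving out each library in turn, and a replicate block.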

Additional observations from a re-analysis of the deposited data

How the results depend on the processing

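No member was called under any alternative, so that the count of called members stayed at 0 in all 147 alternatives run on it. Calls over all lncRNAs in these alternatives numbered 0 to 831 (0% to 9.09%) and were under 1% in 101 of them. A count of 0 of 4 members is near the background throughout this span. Of 581 alternatives for 28 log2 fold changes, 530 kept the sign and 51 reversed it, 38 of these by leaving out 1 library, and 11 of the 28 results had no reversal. The smallest adjusted p of a member over the alternatives was 0.173, beside 0.350 in the analysis reported. The DGAT result for MT_30 versus JN_30 kept its sign in all 22 alternatives, between -0.97 and -0.45, and its unadjusted p was at most 0.05 in 14 of them (adjusted p 0.218 to 0.577). The groups of the DGAT lncRNA did not overlap there, so that neither a pseudocount nor leaving out 1 library could reverse the sign. The difference between its stage effects lay between 0.71 and 1.60 in 20 alternatives, with an unadjusted p of at most 0.05 in 13 (adjusted p 0.349 to 0.910). The most members above 0.1 FPKM in a library was 4, beside 5 above 0. MSTRG.33760.2 could not be fitted with a filter of more than 0.5 FPKM in at least 3 libraries.

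The cause of the reversals was not tested. With a pseudocount of 1, MSTRG.33760.2 became -0.0018 for MT_40 versus MT_30, and the FATB1B lncRNA became -0.0318 for JN_40 versus JN_30 and -0.0301 for MT_30 versus JN_30. With array weights FATB1B gave -0.0582 for JN_40 versus JN_30 and -0.0713 for MT_30 versus JN_30. Array weights also gave 0.20 for MSTRG.33760.2 in JN_40 versus JN_30, 0.13 for MSTRG.33761.1 in MT_30 versus JN_30 and -0.0308 for MSTRG.33760.2 in the difference between stage effects. For 40 d versus 30 d over both materials, MSTRG.33760.2 became 0.24 with a pseudocount of 0.01, 0.19 with array weights and 0.0327 with voom, MSTRG.33761.1 became 0.0736 and the DGAT lncRNA -0.0218 with array weights.

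Leaving out 1 library at a time, the values reached both signs for these results. MSTRG.33760.2 lay between -0.15 and 0.55 for MT_40 versus MT_30, -0.71 and 0.51 for JN_40 versus JN_30, -0.996 and 0.22 for MT_30 versus JN_30, -0.58 and 0.25 for MT_40 versus JN_40, -0.31 and 0.30 for 40 d versus 30 d, -0.60 and 0.012 for MT72 versus JN18, and -0.42 and 0.80 for the difference between stage effects. MSTRG.33761.1 lay between -1.04 and 0.0792 for JN_40 versus JN_30, -0.77 and 0.35 for MT_30 versus JN_30, -0.34 and 0.22 for 40 d versus 30 d, and -0.0684 and 0.49 for MT72 versus JN18. The FATB1B lncRNA lay between -0.46 and 0.59 for JN_40 versus JN_30, -0.45 and 0.60 for MT_30 versus JN_30, -0.39 and 0.13 for 40 d versus 30 d, -0.39 and 0.13 for MT72 versus JN18, and -0.92 and 0.13 for the difference between stage effects. The DGAT lncRNA lay between -0.11 and 0.16 for 40 d versus 30 d.

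The library numbers are shared between MT72 and JN18 at each stage, but libraries of 1 number did not deviate together, with correlations of -0.159 to 0.0136 over 9142 lncRNAs, so the number was not taken as a pairing. With a replicate block on the library number, 0 members were called in MT_30 versus JN_30, and the DGAT lncRNA kept -0.84 with an unadjusted p of 0.0985 and an adjusted p of 0.504. The block cannot change this fold change, since each number holds 1 library of each material. Calls over all lncRNAs in that comparison were 40 with the block and 81 without.

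Depth limits the low members most. The value of MSTRG.17772.1 above 0 comes to 0.873 estimated reads, and the junction-sharing PLDZ lncRNA rests on 0 to 9.80 estimated reads a library. Without JN_9 the intronic PLDZ lncRNA changed sign in JN_40 versus JN_30, in MT_30 versus JN_30 and in 40 d versus 30 d over both materials.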
